A study of Mus musculus with 2 samples.

Results

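The 10 genes that encode Wnt ligands, Wnt2, Wnt2b, Wnt4, Wnt5a, Wnt5b, Wnt6, Wnt7b, Wnt9a, Wnt10a and Wnt11, were followed through the cells of mouse pancreatic tumours to see which cells held their transcripts. They were taken by symbol from the 32285 genes listed for each library, so 10 of 32285 genes are described, and the other 9 Wnt ligand genes are given only as a group. The measurement was single-cell RNA-seq of orthotopic KPC tumours, which grow from implanted mouse pancreatic cancer cells. Tumours were taken at day 21 from control littermates, genotype Porcnfl/fl, and from Csf1r-Cre;Porcnfl/fl mice. Csf1r-Cre is active in monocytes, macrophages and related myeloid cells, so in the second group the host's myeloid cells, and not the implanted cancer cells, are the intended site of the Porcn deletion. Each genotype is 1 library, made from 5 pooled mice. There were therefore no replicates, no test between genotypes can be made, and each difference below lies between 2 libraries.

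Wnt ligands are secreted glycoproteins that carry a fatty acid. Porcn, an enzyme of the endoplasmic reticulum, attaches it to 1 conserved serine, Wls then carries the ligand to the cell surface, and Frizzled receptors grip the lipid. Ligands that act with Frizzled and Lrp5 or Lrp6 stabilise beta-catenin, whereas others act through Ror or Ryk receptors on cell shape and movement. In the pancreas, mesenchymal cells are known makers of Wnt ligands, and pancreatic cancer cells can make their own.

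The coding sequence around that serine shows what the 10 ligands share. Each line gives 24 bases of the coding strand, 5′ to 3′, from GENCODE M21 on GRCm38, with the serine codon in capitals.
Wnt2: tgtcatggtgtgAGTggctcctgt
Wnt2b: tgtcacggtgtgAGTggctcctgt
Wnt4: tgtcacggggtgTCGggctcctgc
Wnt5a: tgtcatggagtgTCTggctcctgt
Wnt5b: tgtcacggagtcTCCgggtcctgc
Wnt6: tgccatgggcttTCGggttcctgc
Wnt7b: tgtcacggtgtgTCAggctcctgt
Wnt9a: tgccatggtgtgTCTggctcctgc
Wnt10a: tgccacggcaccTCAggcagctgc
Wnt11: tgccatggggtgTCTggctcctgc

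All 10 stretches held a serine codon at the same place, and 11 of the 24 bases were the same in every ligand. The codon itself differed: AGT in 2 ligands, TCT in 3, TCG in 2, TCA in 2 and TCC in 1. In GRCm38 coordinates the stretches lie in coding exons at chr6:18008792-18008815 for Wnt2 (minus strand, exon 4 of 5), chr3:104951220-104951243 for Wnt2b (minus strand, exon 4 of 5) and chr4:137296345-137296368 for Wnt4 (plus strand, exon 5 of 5). Those of Wnt5a and Wnt5b lie at chr14:28522515-28522538 (plus strand, exon 5 of 5) and chr6:119433800-119433823 (minus strand, exon 5 of 5). Wnt6 and Wnt10a are neighbours on chromosome 1, 6193 bases apart on the plus strand, with their stretches at chr1:74784172-74784195 and chr1:74803156-74803179, each in exon 4 of 4. The remaining stretches lie at chr15:85537812-85537835 for Wnt7b (minus strand, exon 4 of 4), chr11:59330926-59330949 for Wnt9a (plus strand, exon 4 of 4) and chr7:98850260-98850283 for Wnt11 (plus strand, exon 6 of 7).

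The libraries held 173934025 unique molecular identifiers (UMIs, one per captured transcript) in 13766 control barcodes and 137527647 in 12251 knockout barcodes. After filters, 11516 control and 10467 knockout cells were kept, with medians of 12167.5 and 10109 UMIs per cell, and 46 cell barcodes occurred in both libraries. Clusters were named from marker genes, with the ending "-like". Clusters whose markers belonged to more than 1 compartment were left out as mixed, which took 204 control cells (1.77%) and 187 knockout cells (1.79%), and another 213 (1.85%) and 264 (2.52%) stayed unnamed. The epithelial/tumour-like class held 9195 control and 5763 knockout cells in 15 subsets, and the fibroblast-like class held 546 and 684 cells in 12 subsets. Subsets carry a name where fixed markers gave one, and otherwise their 2 leading genes. A level is the ligand's UMIs in all cells of a class or subset, per 1000000 UMIs of those cells (CPM). The 3′ tag counting needs no scaling for gene length. Ranges after a value are its exact 95% interval. They describe the error of counting and say nothing of how mice or libraries vary.

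Tumour and fibroblast cells held most of the ligand transcripts, but not the same ligands. In the control library the tumour class led by Wnt5a at 45.1 CPM (44.0 to 46.2), Wnt4 at 42.8 CPM (41.7 to 43.9), Wnt7b at 30.9 CPM (30.0 to 31.8) and Wnt10a at 11.9 CPM (11.4 to 12.5). The fibroblast class led by Wnt4 at 308 CPM (295 to 320), ahead of Wnt5a at 53.45 CPM (48.4 to 58.9), Wnt2 at 51.9 CPM (46.8 to 57.3) and Wnt9a at 16.5 CPM (13.7 to 19.7). Wnt7b and Wnt10a were thus epithelial ligands, with 2 and 4 control UMIs in all fibroblasts, while Wnt2 was a mesenchymal one at 0.318 CPM (0.234 to 0.423) in tumour cells. In the knockout library Wnt4 stood behind Wnt7b in tumour cells, while the order in fibroblasts was as in control. Sources were ranked only where they had at least 20 cells and 10 UMIs of the ligand. By that rule the leading class was the same in both libraries for each ligand but Wnt5b, and for Wnt2b the order says little, since tumour cells were the 1 class to reach 10 UMIs (14 and 13) while fibroblasts, with 7 in each library, had the higher level.

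**Figure D1:**
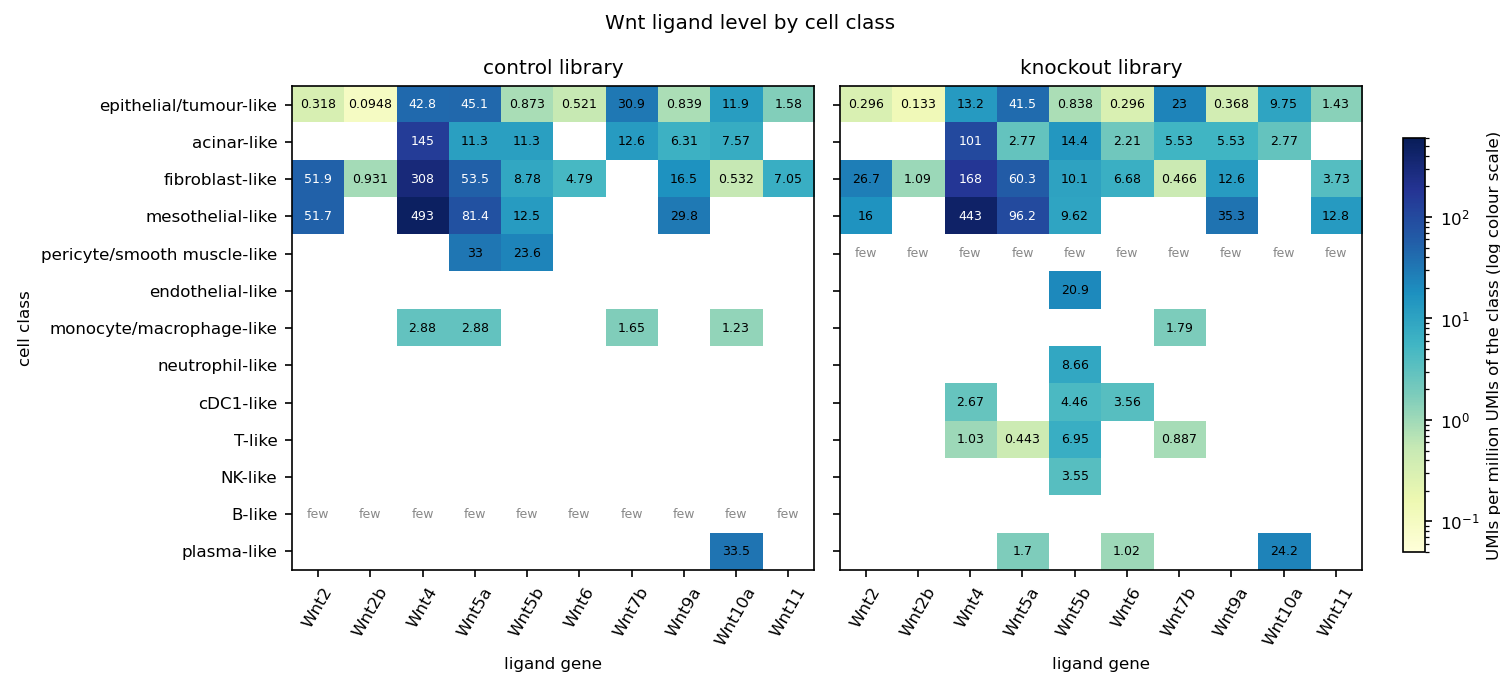
Level of each of the 10 ligands (columns) in each cell class (rows), in CPM on a log colour scale, for the control and the knockout library. An empty cell has under 3 UMIs, and "few" marks a class with under 20 cells in that library. Wnt4 is highest in mesothelial-like and fibroblast-like cells, at 493 and 308 CPM in the control library, and Wnt7b and Wnt10a are nearly absent from fibroblasts.

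Because tumour cells were many, a class could hold most of a ligand's transcripts with a modest level per cell. Tumour cells held 96.5% of the Wnt7b UMIs of the control library and 95.1% of those of the knockout library, 94.7% and 88.9% of the Wnt10a UMIs, and 90.6% and 86.9% of the Wnt5a UMIs. Fibroblasts held 71.8% and 79.3% of the Wnt2 UMIs. Wnt4 was shared: 66.3% of its control UMIs lay in tumour cells and 24.3% in fibroblasts, against 44.2% and 37.1% in the knockout library. These shares depend on how many cells of each class entered a library.

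Between genotypes, a gene was counted as lower or higher when its level differed by at least 1.5-fold, among genes with at least 20 UMIs over both libraries. In the tumour class all 10 ligands could be compared: 3 were lower in the knockout library (Wnt4, Wnt6 and Wnt9a) and 0 were higher, where 8.25% of all genes compared were lower and 6.3% higher. When cells were named one by one from the markers, without clusters, Wnt9a and Wnt6 did not pass 1.5-fold (log2 ratios of 0.07 and -0.22 in place of -1.16 and -0.78), and Wnt4 did (-1.30 in place of -1.70). The median log2 ratio of knockout over control was -0.21 over the ligands and -0.08 over all genes. In the fibroblast class 7 ligands could be compared, of which 3 were lower (Wnt2, Wnt4 and Wnt11) and 0 higher, beside 10.1% of all genes lower and 19.7% higher. Of these, Wnt2 and Wnt4 did not pass 1.5-fold with each shared subset given the same weight (0.02 and -0.34), nor did Wnt11 with cells named one by one (-0.57). The median log2 ratio there was -0.38 over the ligands and 0.13 over all genes. Summed over the 10 ligands, the level in the knockout library was 0.673 times that in the control library in tumour cells (0.656 to 0.690) and 0.642 times in fibroblasts (0.607 to 0.680).

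**Figure D2:**
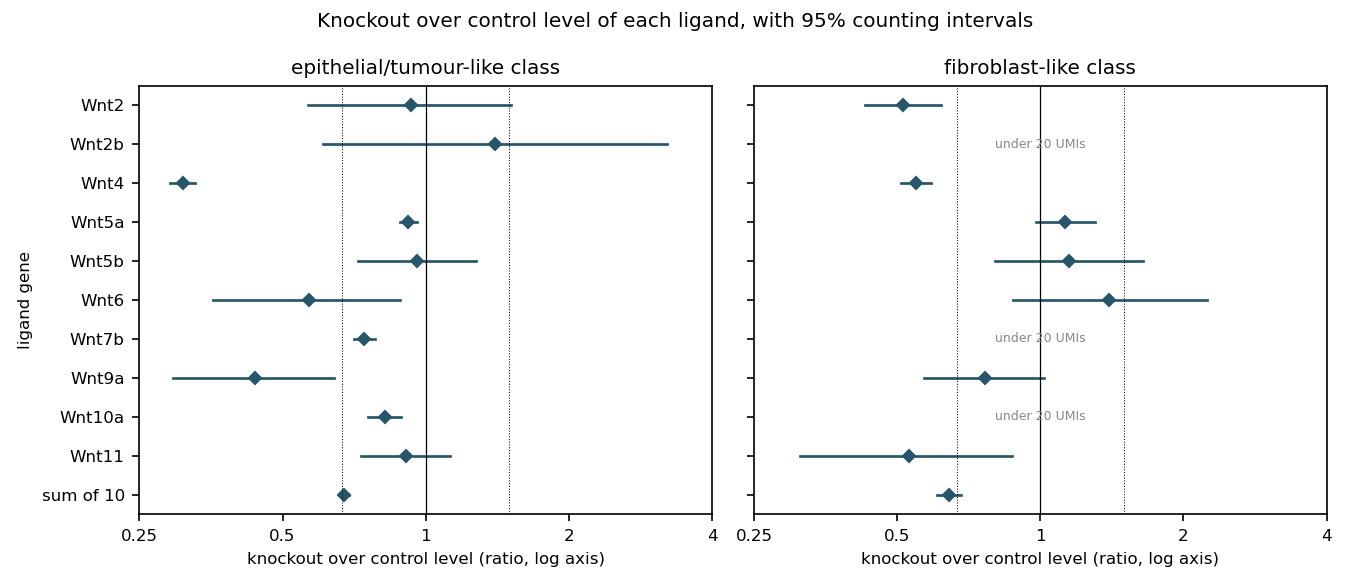
Ratio of the knockout to the control level of each ligand, on a log axis, in the tumour and fibroblast classes, with exact 95% counting intervals. The dotted lines mark 1.5-fold either way, ligands under 20 UMIs are not drawn, and the last row is the sum of the 10 ligands. Wnt4 lies under 1 in both classes, at 0.308 and 0.548.

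Wnt4, a ligand with roles in kidney, mammary gland and female reproductive tract development, had the highest class level of the 10. That level lay, as clustered, in mesothelial-like cells, with fibroblasts next, while in tumour cells Wnt5a stood above Wnt4 in both libraries. Wnt4 lies at chr4:137277489-137299726 (GRCm38). In tumour cells it was counted 6322 times in the control library and 1290 times in the knockout library, a level of 42.8 against 13.2 CPM and a ratio of 0.308 (0.290 to 0.327). At least 1 Wnt4 UMI was seen in 26.7% of control and 11.2% of knockout tumour cells, whose median depths were 13427 and 14915 UMIs. With every cell thinned to 3000 UMIs, which left out 287 and 223 shallower cells, the shares were 11.2% (10.6 to 11.9) and 3.29% (2.83 to 3.79). The control share was thus the higher one at equal depth too.

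Within the tumour class, Wnt4 was spread unevenly. In the control library it was highest in the intestinal-like subset at 103 CPM (93.9 to 113; 185 cells) and in the Adamts1/Cxcl12 subset at 102 CPM (97.9 to 107; 1882 cells), whose intervals overlap. The Chsy3/Ccn5 subset followed at 81.7 CPM (76.2 to 87.5), the Fos/Fosb subset, led by immediate early genes, at 59.7 CPM (51.8 to 68.5) and the gastric mucous-like subset at 52.3 CPM (48.4 to 56.5). These 5 subsets stood above the class as a whole. At the other end were the Krt16/Ptgs2 subset at 9.41 CPM (6.78 to 12.7) and the Hmox1/Mgarp subset at 8.92 CPM (7.43 to 10.6), with intervals that overlap.

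The Adamts1/Cxcl12 subset was also the tumour subset with the most Wnt4 transcripts. It held 1902 control Wnt4 UMIs, 19.96% of all those in the library, and Wnt4 made up 57.2% of the UMIs of the 10 ligands in it (55.5 to 58.9). In the knockout library the subset held 245 Wnt4 UMIs at 69.3 CPM (60.9 to 78.5), a ratio of 0.676 (0.590 to 0.773), and Wnt4 was again 51.3% of its ligand UMIs (46.7 to 55.8). The subset was itself smaller in the knockout library: 369 of 5763 tumour cells (6.40%) against 1882 of 9195 (20.5%). The intestinal-like subset had 185 control and 15 knockout cells, too few to give a knockout level.

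Wnt4 was lower in the knockout library in each tumour subset that both libraries held. Of 12 subsets with at least 20 cells in each, the ratio was under 1 in 12, its interval lay under 1 in 11, and 10 passed 1.5-fold, where 5.57% of all gene and subset pairs did so (3.25% to 8.75% by subset) and 5.23% lay past it on the higher side. The ratios ran from 0.214 (0.135 to 0.325) in the Fos/Fosb subset, at 59.7 against 12.8 CPM, to 0.719 (0.273 to 1.62) in the Krt16/Ptgs2 subset, with a median of 0.478. The hypoxia-like subset stood at 34.3 against 8.53 CPM (ratio 0.249, 0.170 to 0.354). Its neighbour in the order, the cycling-like subset, stood at 36.7 against 12.1 CPM (0.329, 0.267 to 0.402). The interferon-like subset, at 27.3 against 13.8 CPM (0.503, 0.415 to 0.608), and the gastric mucous-like subset, at 52.3 against 26.5 CPM (0.507, 0.413 to 0.617), differed less. With each shared subset given the same weight in both libraries, the log2 ratio of the tumour class was -1.03 in place of -1.70.

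**Figure D3:**
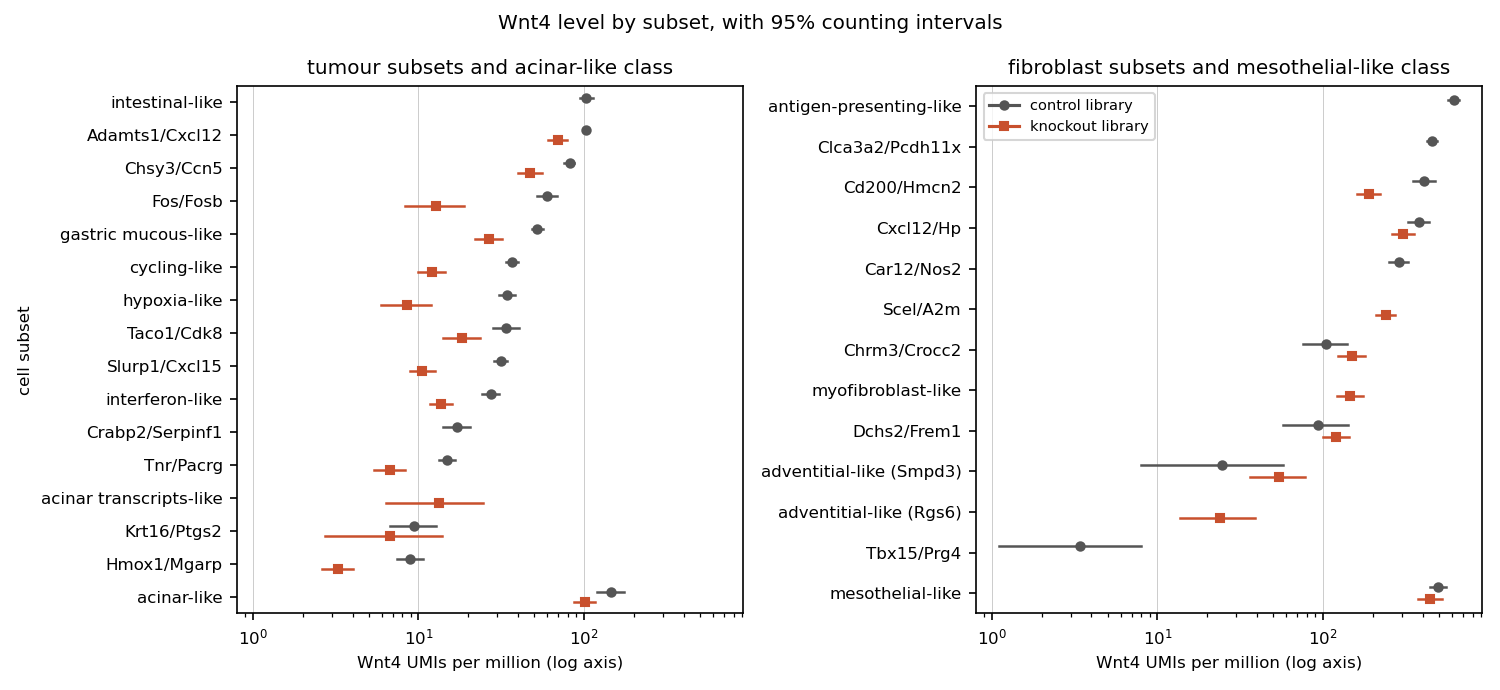
Wnt4 level (CPM, log axis) in each tumour subset and the acinar-like class (left) and in each fibroblast subset and the mesothelial-like class (right) with at least 20 cells in a library, with exact 95% Poisson intervals, for both libraries. In the left panel each knockout point lies left of its control point where both are drawn. In the right panel the directions are mixed.

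Fibroblasts held more Wnt4 per UMI than tumour cells in both libraries, 308 CPM (2313 UMIs) in control, against 168 CPM (1084 UMIs) in knockout, a ratio of 0.548 (0.509 to 0.589). With cells thinned to 3000 UMIs, 38.9% of control fibroblasts (34.6 to 43.3) and 29.1% of knockout fibroblasts (25.6 to 32.9) held a Wnt4 UMI, beside 51.6% and 42.3% unthinned at median depths of 11424.5 and 8906.5 UMIs. Their subsets, however, were not the same in the 2 libraries. The highest control levels were in antigen-presenting-like fibroblasts, led by Cd74 and MHC class II genes, at 616 CPM (572 to 662; 80 cells) and in the Clca3a2/Pcdh11x subset at 455 CPM (425 to 487; 89 cells). Those subsets had 15 and 7 knockout cells and no knockout level can be given. At the low end, the 108 control cells of the Tbx15/Prg4 subset, which had 1 knockout cell, held 5 Wnt4 UMIs (3.42 CPM, 1.11 to 7.97).

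In the 5 fibroblast subsets present in both libraries the direction differed. Wnt4 was lower in the knockout library in the Cd200/Hmcn2 subset, at 406 CPM (347 to 472) against 188 CPM (160 to 220), and in the Cxcl12/Hp subset, at 377 CPM (326 to 434) against 304 CPM (260 to 353). It was higher in the Chrm3/Crocc2 subset, at 104 CPM (75.7 to 140) against 149 CPM (123 to 179). In the Dchs2/Frem1 subset it stood at 93.0 CPM (57.6 to 142) against 120 CPM (100 to 144). The level intervals overlap in the Cxcl12/Hp, Chrm3/Crocc2 and Dchs2/Frem1 subsets. Their ratios were 0.805 (0.652 to 0.9935), 1.43 (1.005 to 2.075) and 1.295 (0.811 to 2.17), so the first 2 intervals only just leave out 1. In the adventitial-like subset led by Smpd3, with 5 control and 28 knockout UMIs, the ratio was 2.20 (0.839 to 7.30). Of these 5, 1 passed 1.5-fold lower and 1 higher, where 14.1% of all gene and subset pairs were lower and 10.5% higher. With each shared subset given the same weight, the log2 ratio of the fibroblast class was -0.34 in place of -0.87. The part that subset sizes have in the lower Wnt4 level of the whole fibroblast class was not tested beyond that value.

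Mesothelial-like cells, the lining of the abdominal organs, stood, as clustered, in the range of the richest fibroblasts. Their Wnt4 level was 493 CPM (440 to 551) in 46 control cells and 443 CPM (372 to 523) in 32 knockout cells, a ratio of 0.898 (0.730 to 1.10). With cells named one by one the levels were 72.2 and 32.1 CPM, far under the richest fibroblasts. Wnt4 was 73.3% of their 10-ligand UMIs in control and 71.5% in knockout. Acinar-like cells, the pancreas's enzyme makers, held 145 CPM (120 to 174; 45 cells) and 101 CPM (87.1 to 117; 62 cells). Of the classes beyond tumour and fibroblasts, these 2 were the ones with a clear Wnt4 level in both libraries.

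Wnt5a, the best known ligand of beta-catenin-independent signalling through Ror receptors, was the broadest of the 10. It lies at chr14:28504750-28527448. Tumour cells held 6662 control and 4058 knockout UMIs, 45.1 against 41.5 CPM (40.2 to 42.8), and 39.0% and 38.5% of them had a UMI. Thinned to 3000 UMIs these shares were 12.6% (11.9 to 13.3) and 11.3% (10.5 to 12.1). Its highest source was the Cd200/Hmcn2 fibroblast subset in both libraries, at 96.7 CPM (69.1 to 132) and 115 CPM (93.0 to 140). The next sources were tumour subsets within the same interval: the Crabp2/Serpinf1 subset at 89.8 CPM (82.6 to 97.5) in control, and the Krt16/Ptgs2 subset at 83.8 CPM (75.5 to 92.7) in control, against 109 CPM (90.0 to 131) in knockout. The lowest control tumour subset was the intestinal-like one at 12.8 CPM (9.68 to 16.7), the same subset that led for Wnt4.

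Between genotypes Wnt5a differed little inside the tumour class. Its ratio was under 1 in 6 of the 12 shared subsets and over 1 in the other 6, running from 0.8503 in the cycling-like to 1.304 (1.05 to 1.61) in the Krt16/Ptgs2 subset, and 0 passed 1.5-fold. In the Hmox1/Mgarp subset, the largest knockout tumour subset with 1438 cells, it was 56.7 against 49.7 CPM (ratio 0.877, 0.802 to 0.958). Wnt5a made up 54.2% of that subset's 10-ligand UMIs in control and 59.9% in knockout. Fibroblasts as a class stood at 53.45 and 60.3 CPM (a ratio of 1.13, with 1 inside its interval), and mesothelial-like cells at 81.4 CPM (60.8 to 107) and 96.2 CPM (64.9 to 137). Of the 12 shared tumour subsets, none reached for Wnt5a the ratio that the median subset had for Wnt4.

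Wnt7b, a ligand of epithelia such as lung, skin and collecting duct, was counted mostly in tumour cells. It lies at chr15:85535437-85582473. Its levels in the tumour class were 30.9 and 23.0 CPM (22.0 to 23.9), a ratio of 0.743 (0.706 to 0.781). Acinar-like cells held 10 Wnt7b UMIs in 7 cells in each library, at 12.6 CPM (6.05 to 23.2) and 5.53 CPM (2.65 to 10.2), and the unnamed cells stood at 29.4 CPM (20.1 to 41.5) and 11.7 CPM (6.40 to 19.6). Thinned to 3000 UMIs, 6.86% of the control class (6.34 to 7.40) and 6.53% of the knockout class (5.90 to 7.22) had a UMI, intervals that overlap, beside 28.1% and 25.8% unthinned. The highest subsets were Crabp2/Serpinf1 at 81.7 CPM (74.8 to 89.0) and Krt16/Ptgs2 at 71.7 CPM (64.0 to 80.0) in control, and Krt16/Ptgs2 at 53.2 CPM (40.1 to 69.2) in knockout. The Crabp2/Serpinf1 subset had 212 control cells and 5 knockout cells, and its leading genes also included Fbn1 and Col6a3, which fibroblasts express. The cycling-like subset was next in control at 47.3 CPM (43.8 to 51.0), against 31.4 CPM (28.0 to 35.1) in knockout.

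The Wnt7b ratio was under 1 in 12 of 12 shared tumour subsets, with its interval under 1 in 8, and ran from 0.396 to 0.962. It passed 1.5-fold in 3: the Adamts1/Cxcl12 subset at 13.6 against 5.37 CPM (0.396, 0.234 to 0.631), the gastric mucous-like subset at 14.1 against 8.54 CPM (0.606, 0.415 to 0.865) and the cycling-like subset at 47.3 against 31.4 CPM (0.665, 0.580 to 0.762). Subsets rich in Wnt4 tended to be poorer in Wnt7b. Across tumour subsets with at least 20 cells the levels of the 2 ligands had a Pearson correlation of -0.63 (Spearman -0.60, 14 subsets) in control and -0.62 (Spearman -0.75, 13 subsets) in knockout. The subsets of a library share its depth and free RNA, and this is a description, not a test. The same Pearson measure for Wnt4 and Wnt5a was -0.39 in control and 0.11 in knockout. For Wnt5a and Wnt10a it was -0.76 in control and -0.49 in knockout.

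**Figure D4:**
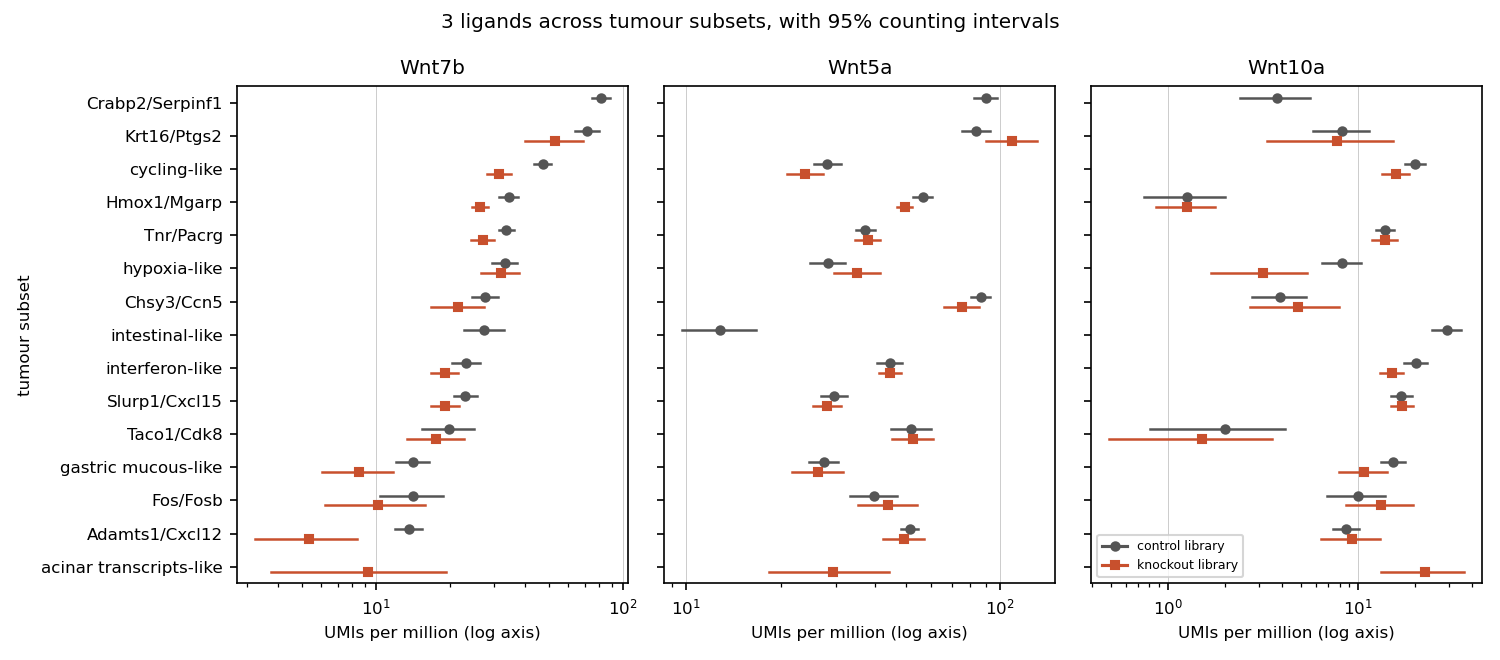
Levels of Wnt7b, Wnt5a and Wnt10a (CPM, log axes) in the tumour subsets with at least 20 cells, ordered by Wnt7b in control, with exact 95% Poisson intervals, for both libraries. Wnt7b and Wnt5a are high in the Crabp2/Serpinf1 and Krt16/Ptgs2 subsets, where Wnt4 is at 17.1 and 9.41 CPM in control. In control Wnt10a is highest in the intestinal-like subset, which has 15 knockout cells and is not drawn for that library.

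Wnt10a, a beta-catenin-activating ligand of skin and tooth development, was the fourth tumour ligand. It lies at chr1:74791516-74804179. Tumour cells stood at 11.9 and 9.75 CPM (9.14 to 10.4), a ratio of 0.820 (0.757 to 0.887). Among tumour subsets the intestinal-like one was highest in control at 29.3 CPM (24.5 to 34.8), followed by the interferon-like subset at 20.1 CPM (17.4 to 23.0) and the cycling-like subset at 19.95 CPM (17.7 to 22.4). In the knockout library the Slurp1/Cxcl15 subset, at 17.0 CPM (14.9 to 19.4), the cycling-like subset, at 15.8 CPM (13.4 to 18.5), and the interferon-like subset, at 15.1 CPM (13.1 to 17.4), had overlapping intervals. Of 11 shared subsets with enough UMIs, 7 had a ratio under 1 and 4 over 1, and 1 passed 1.5-fold, the hypoxia-like subset at 8.21 against 3.17 CPM (0.386, 0.196 to 0.702). The Hmox1/Mgarp subset held almost none, at 1.26 CPM in each library.

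Wnt10a was also present in plasma-like cells, the antibody makers, which were, as clustered, the highest source of it in both libraries. The 54 control plasma-like cells held 22 Wnt10a UMIs in 10 cells, a level of 33.5 CPM (21.0 to 50.8). That level was 18.4 CPM with cells named one by one and 18.25 CPM with mixed clusters kept, both under the intestinal-like tumour subset. The 196 knockout plasma-like cells held 71 UMIs in 38 cells, or 24.2 CPM (18.9 to 30.5). The next sources had overlapping intervals, the intestinal-like tumour subset in control and the tumour subset with acinar transcripts in knockout, at 22.6 CPM (13.2 to 36.2; 17 UMIs in 3 cells). Wnt10a was 81.5% of the 10-ligand UMIs of plasma-like cells in control and 84.5% in knockout, a make-up unlike that of tumour cells, where it was 8.82% and 10.8%. The summed level of 7 tumour keratins and junction genes in plasma-like cells was 2.10% of the tumour level in control and 0.872% in knockout, and free RNA at those shares would give 0.170 and 0.2497 Wnt10a UMIs. After thinning to 3000 UMIs, 4.55% of control plasma-like cells (0.555 to 15.5; 10 cells left out) and 6.08% of knockout ones (3.07 to 10.6; 15 left out) held a UMI. Unthinned the shares were 18.5% and 19.4%, beside 0% (up to 1.92) and 0.0618% in T-like cells. The T-like cells were shallower, at median depths of 2821.5 and 3342 UMIs against 12729.5 and 14827 in plasma-like cells.

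**Figure D5:**
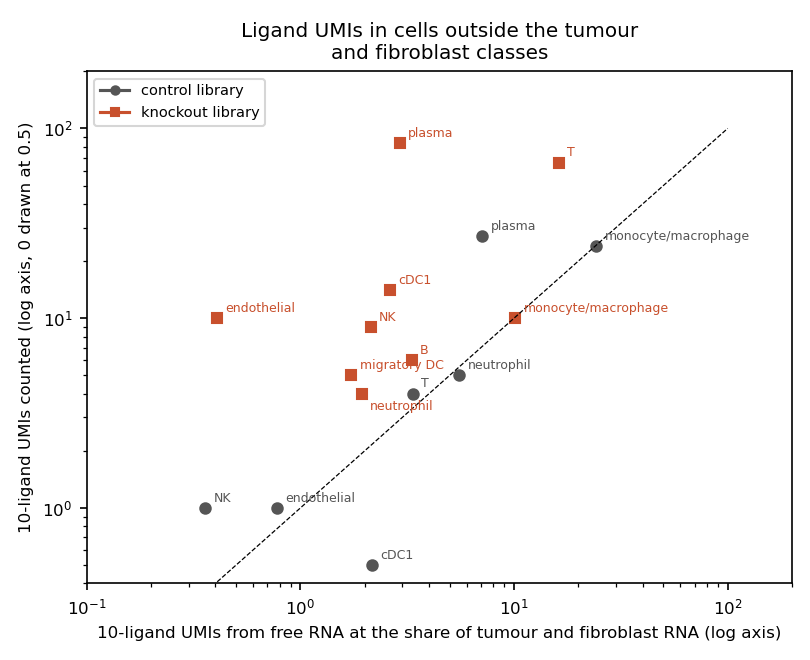
UMIs of the 10 ligands counted in each leukocyte and endothelial class (vertical axis) against the number that free RNA would give at the share of tumour and fibroblast reference genes in that class (horizontal axis), both on log axes, for both libraries. On the dashed line the 2 are equal: macrophage-like cells lie on it, while plasma-like cells, with 27 and 84 UMIs against 7.10 and 2.91, lie above it. Of the knockout points, T-like (66 against 16.2), cDC1-like (14 against 2.64), endothelial-like (10 against 0.406) and NK-like cells (9 against 2.14) also lie well above it.

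Wnt5b, a relative of Wnt5a, was low and came from many cells. It lies at chr6:119432531-119544347. The fibroblast class held 8.78 CPM (6.79 to 11.2) in control, against 10.1 CPM (7.79 to 12.9) in knockout, and tumour cells 0.873 and 0.838 CPM. In control the highest source was the pericyte/smooth muscle-like class at 23.6 CPM (11.3 to 43.4; 10 UMIs in 52 cells), followed by Clca3a2/Pcdh11x fibroblasts at 18.3 CPM (12.6 to 25.6), and the intervals overlap. Among classes and tumour or fibroblast subsets with at least 10 UMIs, the highest in knockout was the adventitial-like fibroblast subset led by Rgs6. That subset stood at 19.4 CPM (10.3 to 33.2, 13 UMIs). A cluster within the T-like class, described below, stood higher. Knockout endothelial-like cells, with 4 UMIs, stood at 20.9 CPM. Acinar-like cells held 11.35 CPM (5.19 to 21.6) in control, against 14.4 CPM (9.39 to 21.1) in knockout.

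In the knockout library Wnt5b was also found in T-like cells. There were 47 UMIs in 32 of 1619 T-like cells, a level of 6.95 CPM (5.10 to 9.24), against 1 UMI in 190 control cells (1.51 CPM, 0.0381 to 8.38). Wnt5b was the 1 ligand with enough UMIs in this class and lay past 1.5-fold higher, as 10.2% of all genes did, but the intervals overlap and a difference was not detectable at this depth. Of the 47 UMIs, 39 lay in 1 cluster led by Themis, Lef1, Bcl11b, Cd4 and Cd5, at 25.9 CPM (18.4 to 35.4). This cluster held 490 knockout cells but 21 control cells, in which 0 UMIs allow a level of up to 49.2 CPM. Free RNA at the share of tumour and fibroblast reference genes in the cluster would give 0.0591 Wnt5b UMIs. A few Wnt5b UMIs were also seen in knockout neutrophil-like (4 UMIs in 185 cells), cDC1-like (5 in 116), NK-like (3 in 243) and endothelial-like cells (4 in 23), against 0, 0, 0 and 1 in control.

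Wnt2, a ligand of mesenchyme in lung and gut, was mainly a fibroblast transcript. It lies at chr6:17988940-18030585. In control its highest level among subsets with at least 20 cells was 101 CPM (85.5 to 119; 148 UMIs, 27.3% of the library's) in the Tbx15/Prg4 subset, the fibroblasts nearly without Wnt4, ahead of antigen-presenting-like fibroblasts at 63.9 CPM (50.4 to 80.0). Smaller control subsets were as high or higher, the Rgs6-led adventitial-like one at 156 CPM (85.2 to 262; 14 UMIs in 7 cells) and myofibroblast-like cells at 127 CPM (87.8 to 177; 34 UMIs in 18 cells). In the knockout library, where the Tbx15/Prg4 subset had 1 cell, the Rgs6-led adventitial-like subset was highest at 61.3 CPM (44.0 to 83.2), with the Cd200/Hmcn2 subset at 55.0 CPM (40.4 to 73.1) inside its interval. The class level was 51.9 CPM in control and 26.7 CPM (22.9 to 31.0) in knockout, a ratio of 0.515 (0.428 to 0.618). In the 2 shared subsets with enough UMIs the ratios went opposite ways, 1.62 (0.879 to 3.19) in the Cd200/Hmcn2 and 0.426 (0.179 to 1.02) in the Smpd3-led subset. With each shared subset given the same weight the log2 ratio was 0.02 in place of -0.95. Mesothelial-like cells held 33 control and 5 knockout Wnt2 UMIs, at 51.7 CPM (35.6 to 72.6) and 16.04 CPM, the 1 ligand of 4 compared there past 1.5-fold, where 15.7% of all genes were lower.

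Wnt9a, known from joint formation, had its higher class levels in fibroblasts and mesothelial-like cells, as Wnt2 did. It lies at chr11:59306928-59333552. Control fibroblasts held 16.5 CPM and knockout fibroblasts 12.6 CPM (9.99 to 15.6). Its highest control subsets with at least 20 cells were Cd200/Hmcn2 at 31.4 CPM (16.7 to 53.8; 13 UMIs) and Tbx15/Prg4 at 30.7 CPM (22.4 to 41.1; 45 UMIs). Control mesothelial-like cells stood at 29.75 CPM (17.91 to 46.45; 19 UMIs). The 18 control myofibroblast-like cells stood at 37.28 CPM (17.88 to 68.57; 10 UMIs), and all these intervals overlap. In knockout, mesothelial-like cells at 35.3 CPM (17.6 to 63.2; 11 UMIs) and myofibroblast-like fibroblasts at 28.0 CPM (17.8 to 42.0; 23 UMIs) were highest, with overlapping intervals. In tumour cells the level was 0.839 against 0.368 CPM, a ratio of 0.438 (0.294 to 0.640) over 124 and 36 UMIs, which is the difference that was absent with cells named one by one (log2 ratio 0.07). In control the Crabp2/Serpinf1 subset, which had 5 knockout cells, held 31 of those 124 UMIs. Across fibroblast subsets with at least 20 cells, Wnt2 and Wnt9a had a Pearson correlation of 0.31 (Spearman 0.25, 9 subsets) in control. In knockout it was 0.73 (Spearman 0.60, 8 subsets).

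Wnt2b and Wnt6 were the rarest, at 22 and 125 UMIs in the control library, against 24 and 89 in the knockout library. Wnt6 (chr1:74771892-74785322), known from epithelia such as the kidney's ureteric bud, stood at 4.79 CPM (3.35 to 6.63) in control, against 6.68 CPM (4.84 to 8.999) in knockout fibroblasts. Among subsets with at least 20 cells and 10 UMIs, it was highest in the Cxcl12/Hp subset in control, at 25.1 CPM (13.4 to 43.0; 13 UMIs in 5 cells). In knockout that was the Cd200/Hmcn2 subset, at 17.5 CPM (9.82 to 28.9; 15 UMIs in 10 cells). Smaller subsets stood higher, Scel/A2m in control at 43.07 CPM (15.8 to 93.74; 6 UMIs in 2 of 7 cells). In knockout, antigen-presenting-like fibroblasts stood at 48.92 CPM (22.37 to 92.87; 9 UMIs in 4 of 15 cells). Tumour cells held 0.521 and 0.296 CPM, a ratio of 0.569 (0.358 to 0.882) that was under 1.5-fold with cells named one by one. Although Wnt6 and Wnt10a lie 6193 bases apart, their highest levels lay in different cells, fibroblasts for Wnt6 and plasma-like and tumour cells for Wnt10a. By number, tumour cells held 61.6% of the Wnt6 UMIs in control and 32.6% in knockout.

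Wnt11 (chr7:98835112-98855195), a ligand of cell movements in the embryo, stood at 7.05 CPM (5.28 to 9.22) in control, against 3.73 CPM (2.39 to 5.55) in knockout fibroblasts, a ratio of 0.529 (0.312 to 0.872). The highest control subset with at least 10 UMIs was Clca3a2/Pcdh11x at 6.64 CPM (3.43 to 11.6). Fibroblast subsets with fewer UMIs stood higher, among them Dchs2/Frem1 at 17.7 CPM (4.83 to 45.4, 4 UMIs) and Car12/Nos2 at 10.2 CPM (4.42 to 20.2, 8 UMIs). In knockout no fibroblast subset reached 10 UMIs. The adventitial-like subsets led by Rgs6 and Smpd3 stood there at 11.96 CPM (5.17 to 23.6, 8 UMIs) and 9.68 CPM (3.14 to 22.6, 5 UMIs). Tumour cells held 1.58 and 1.43 CPM (0.908, 0.731 to 1.12). Their cycling-like subset was the highest tumour subset with at least 10 UMIs in knockout. It stood at 3.45 CPM (2.39 to 4.82) against 2.24 CPM (1.53 to 3.16) in control, and those intervals overlap. The knockout tumour subset with acinar transcripts stood at 3.99 CPM (0.823 to 11.7) with 3 UMIs. Wnt2b (chr3:104945272-104961921), a close relative of Wnt2, was at 0.931 CPM (7 UMIs) and 1.09 CPM (7 UMIs) in fibroblasts and at 0.0948 and 0.133 CPM in tumour cells, and no subset reached 10 UMIs in either library.

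Myeloid cells, the intended site of the Porcn deletion, held few ligand transcripts. In macrophage-like cells their number, over the whole class, was near that given by free RNA. The monocyte/macrophage-like class had 24 UMIs of the 10 ligands in 507 control cells and 10 in 550 knockout cells. Tumour keratins and junction genes stood in them at 6.52% and 3.41% of the tumour level, and free RNA at the reference shares would give 24.2 and 10.1 ligand UMIs, close to the counts. Single control clusters of this class lay on either side. A cluster of 153 cells held 3 Wnt10a and 3 Wnt4 UMIs, against 0.000852 and 0.493 from free RNA. One of 167 cells held 4 Wnt5a UMIs against 0.697, and one of 156 cells held 1 against 4.92. The origin of these few UMIs was not tested. Neutrophil-like cells had 5 in control and 4 in knockout against 5.55 and 1.93 from free RNA, and cDC1-like cells 0 in 54 control cells and 14 in 116 knockout cells, against 2.15 and 2.64. Porcn itself was counted 8 times in control and 4 times in knockout macrophage-like cells. Its 3′ reads may lie outside the deleted part, so they do not check the genotype.

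At the level of single subsets, the highest source was the same in both libraries for 2 of the 10 ligands, Wnt5a (Cd200/Hmcn2 fibroblasts) and Wnt10a (plasma-like cells). For 7 other ligands it differed, and Wnt2b had no subset with at least 10 UMIs. Several of the control leaders (antigen-presenting-like, Tbx15/Prg4 and Clca3a2/Pcdh11x fibroblasts and Crabp2/Serpinf1 tumour cells) had under 20 knockout cells. For those ligands the cells a library held and the level in them cannot be told apart.

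Genes with profiles most like those of the ligands were sought over 52 class and subset profiles from both libraries, among 16095 genes. For Wnt4 the most similar was Ptger3, a prostaglandin E2 receptor and a leading gene of the Adamts1/Cxcl12 subset (Pearson 0.86). Wnt2 and Wnt9a had the same one, Cthrc1, a secreted matrix protein, at 0.97 and 0.93, and Wnt2 was the next most similar to Wnt9a at 0.91. Wnt7b was most like Pbp2 (0.94) and also Hmga2 (0.93), a chromatin protein of embryonic and cancer cells. For Wnt5a it was Pls3, an actin bundler (0.91), and for Wnt5b it was Prkg1, a cyclic GMP kinase (0.85). The best values for Wnt6 (Nrxn2, 0.82), Wnt11 (Uap1, 0.82) and Wnt10a (Crybb1, 0.79) were lower. Profiles of 1 library share its depth and free RNA, and subsets are parts of their classes.

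The other genes of the pathway were counted in the same way. The values for tumour cells are levels of the whole class, whose subsets differed in size between the libraries. The part that subset sizes have in them was not tested. Of 9 genes for ligand processing and secretion, all 9 could be compared in tumour cells, where 8.25% of all genes were lower and 6.3% higher, with 2 lower, Notum and Gpc4, and 1 higher, Gpc3. Notum, an enzyme that removes the lipid from Wnt ligands and is a beta-catenin target in many tissues, stood at 0.981 against 0.225 CPM (ratio 0.229, 0.139 to 0.360). Of 9 feedback genes 7 could be compared, with 4 lower and 0 higher in tumour cells: Axin2 at 2.71 against 1.56 CPM, Rnf43 at 8.24 against 2.62 CPM, Lgr5 at 1.31 against 0.573 CPM and Tcf7 at 3.86 against 2.22 CPM. Axin2 and Rnf43 dampen Wnt signalling, Lgr5 binds R-spondins and Tcf7 is a partner of beta-catenin. Of 15 receptor genes 2 were lower, Fzd2 and Ptk7, and of 5 antagonists 1, Sfrp2, and 0 of either were higher.

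Fibroblasts showed other pathway genes on the higher side, in a class where 19.7% of all genes were higher. These are class levels, and the part that subset sizes have in them was not tested. Of 14 receptor genes 7 were higher and 0 lower: Fzd3, Fzd4, Fzd5, Fzd8, Lrp6, Ror1 and Ptk7. Ror1, the co-receptor of Wnt5a, stood at 224 against 434 CPM (ratio 1.94, 1.82 to 2.06). Of 8 processing genes Porcn, Gpc3 and Gpc6 were higher and Sdc1 lower, and of 5 antagonists Sfrp1, which binds Wnt ligands, was higher at 406 against 997 CPM, as was Dkk3. Among 5 feedback genes Nkd1 was lower and Lgr5 and Apcdd1 higher. Of the other 9 Wnt ligand genes, none reached 20 UMIs in tumour cells, and in fibroblasts 2 did: Wnt10b with 27 and 19 UMIs, and Wnt16 with 22 and 11, the latter past 1.5-fold lower.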

How the data were processed

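Single-cell RNA-seq was analysed from 2 libraries, 1 per genotype, each pooled from 5 mice. The deposited matrices hold whole-number UMI counts per gene and cell barcode, not normalised, which the authors made with Cell Ranger, named as 8.0.0 per the file headers and as 3.1.3 with mm10 in the submitters' processing notes. The gene and barcode lists are as deposited.

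A cell was kept if it had 500 genes or more and no more than 15% of its counts from mitochondrial genes, and doublets called by Scrublet (148 control and 341 knockout) were removed. Counts normalised to 10000 per cell were clustered in scanpy 1.11.5 (2000 variable genes, 30 principal components, 15 neighbours, Leiden resolution 1), with the 19 Wnt ligand genes left out and no batch correction. Classes were named from fixed markers of 21 classes. The scoring of markers and the threshold for mixed clusters were set after the clusters were seen. The members, lists and rules were chosen with earlier results of these data known.

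Raw counts were summed per class or subset and library and given as CPM. Sums have exact Poisson intervals, shares exact Clopper-Pearson intervals and ratios exact conditional intervals, all at 95%. For a count of 0 the limit is 3 counts. Log2 ratios have 1 UMI added to each sum. All 10 ligands are named throughout. A leading source needed 20 cells and 10 UMIs. Profile likeness is the Pearson correlation of log2(CPM + 10) over sources with at least 50 cells, among genes with at least 100 UMIs. Free RNA was read from 7 tumour and 6 fibroblast genes. The scripts were tested on simulated data. Sequences come from GENCODE M21, and protein sequences were not used here. Other tools were python 3.11.15, numpy 2.4.6, scipy 1.17.1, pandas 2.3.3, scikit-learn 1.9.0, igraph 0.11.9 and matplotlib 3.10.9.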

Additional observations from a re-analysis of the deposited data

Results flagged for a closer look

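In class level, the 2 genes that every ligand needs for secretion differed in opposite directions between tumour cells and fibroblasts. Neither contrast between the classes was tested. Porcn, which attaches the lipid, stood at 0.676 times the control level in the knockout tumour class (0.607 to 0.753, 1103 and 494 UMIs) and at 2.57 times in the fibroblast class (1.79 to 3.72, 46 and 101 UMIs). Of the 101 knockout UMIs, 27 lay in the Scel/A2m and 29 in the myofibroblast-like subset, which had 7 and 18 control cells, and 10 of those 29 came from 1 cell. In the shared Chrm3/Crocc2, Dchs2/Frem1 and Smpd3-led subsets the ratio was 0.539, 0.526 and 0.393, each with 1 inside its interval. In the other shared subsets Porcn was higher in knockout. Cd200/Hmcn2 held 1 control and 11 knockout UMIs (ratio 5.32, 0.773 to 229), and Cxcl12/Hp held 0 and 4. Each shared subset held at most 12 Porcn UMIs a library, and the higher class level cannot be told apart from the subsets each library held. Wls, the carrier, was at 0.916 times the control level in tumour cells (0.902 to 0.930) and at 1.11 times in fibroblasts (1.04 to 1.18). Inside the classes its direction was mixed. The Wls ratio was under 1 in 4 and over 1 in 8 of 12 shared tumour subsets, with a median of 1.009. Of 5 shared fibroblast subsets, it was under 1 in 2 and over 1 in 3.

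Mixed clusters, which were used in no comparison, also held ligand transcripts. Their 10-ligand level was 191 CPM in the 204 control cells and 115 CPM in the 187 knockout cells. One of them, led by Jchain, Igkc and Slpi and carrying tumour markers, held Wnt10a at 12.4 CPM in 87 control cells and at 26.0 CPM in 50 knockout cells, and 16 of its 26 knockout UMIs came from 1 cell.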

How the results depend on the processing

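With 1 library per group, leaving out a replicate was not possible. No paired analysis was possible because each group has 1 library. The ratio of the 10-ligand sum stayed under 1 in all 21 alternatives run for each class. In tumour cells it was 0.673, and 0.697 with doublets kept, 0.744 with cells named one by one, 0.769 with subsets weighted alike and 0.695 without subsets that had under 20 cells in a library. Without Wnt4, Wnt5a or Wnt7b it was 0.842, 0.548 or 0.652. In fibroblasts it was 0.642, and 0.693 with a stricter and 0.685 with a looser cell filter, 0.703 with cells named one by one, 0.702 with mixed clusters kept, 0.717 as a mean over cells, 0.836 with subsets weighted alike, 0.754 without subsets of 1 library, and 0.844 or 0.577 without Wnt4 or Wnt5a. Keeping mixed clusters and leaving out subsets of 1 library were chosen after seeing the data.

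The same subset led in both libraries for 2 ligands, for 4 with the stricter filter or at resolution 0.5, and for 1 with doublets or mixed clusters kept or with a mean over cells. Of 204 single-ligand values, 176 stayed within counting error, 26 moved further, and 2 that had passed 1.5-fold changed sign: Wnt9a in tumour cells, with a log2 ratio of -1.16 against 0.0689 with cells named one by one, and Wnt2 in fibroblasts, -0.95 against 0.0236 with subsets weighted alike. Of the values under 1.5-fold, Wnt2, Wnt5b and Wnt11 in tumour cells (up to 1.92, 0.67 and 0.41 with cells named one by one) and Wnt6 (-0.94 without subsets of 1 library) and Wnt5b in fibroblasts also changed sign. The cause was not tested. Wnt4 in mesothelial-like cells was at 72.2 and 32.1 CPM with cells named one by one. At 2-fold, 651 in place of 1389 genes were lower and 415 in place of 1060 higher in tumour cells, and 654 in place of 1290 lower and 1003 in place of 2520 higher in fibroblasts. With at least 100 UMIs the counts were 809, 355, 768 and 1516. Scrublet called 0 doublets in the control library under the stricter filter, where it did not work. Depth limits Wnt2b most, with 20 UMIs in 0 of 12 shared tumour subsets, then Wnt9a with 1, and Wnt2, Wnt5b and Wnt6 with 2 each.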
